A study of Rattus norvegicus with 25 samples.

Results

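The miR-17/miR-92a and miR-106b/miR-25 clusters were examined in small RNA libraries of mitochondria isolated from the red gastrocnemius of rats, an oxidative portion of the calf muscle. The members were taken by name: rno-miR-17-5p, rno-miR-20a-5p, rno-miR-19b-3p and rno-miR-92a-3p from miR-17/miR-92a, and rno-miR-106b-5p, rno-miR-106b-3p, rno-miR-93-5p and rno-miR-25-3p from miR-106b/miR-25. They are 8 of the 764 mature miRNAs in the count table, and 5 of them had at least 1 count, as had 260 of the 764. All rats were male Wistar-Kyoto animals, allocated at 5 weeks of age. The 13 trained rats had 4 weeks of treadmill running with 5 sessions a week, and the 12 sedentary rats were placed on a stationary treadmill for as long. Libraries are named by group and by the number in their title. The isolated mitochondria had been incubated with RNase A before lysis.

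Each cluster is transcribed as a single primary RNA from which several hairpins are cut, and each hairpin can give a mature miRNA from its 5p and its 3p arm. The seed, bases 2 to 8 of the mature miRNA, largely sets which mRNAs are recognised. Both clusters are known for promoting proliferation and survival, with Bim and p21 among their known targets. miR-17/miR-92a is activated by Myc, and miR-106b/miR-25 lies in an intron of Mcm7, a replication factor, and is transcribed with it.

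The mature sequences, from RefSeq on the build GRCr8 with the seed in capitals, are shown because the members with many counts and those with few or none divided largely by seed. All 8 members matched an entry.
rno-miR-17-5p: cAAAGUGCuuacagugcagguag
rno-miR-20a-5p: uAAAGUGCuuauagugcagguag
rno-miR-93-5p: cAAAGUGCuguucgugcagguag
rno-miR-106b-5p: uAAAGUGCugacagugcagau
rno-miR-25-3p: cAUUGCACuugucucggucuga
rno-miR-92a-3p: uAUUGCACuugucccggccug
rno-miR-19b-3p: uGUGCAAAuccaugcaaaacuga
rno-miR-106b-3p: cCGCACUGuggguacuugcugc
The first 4 share the miR-17 seed. miR-25-3p and miR-92a-3p share another seed and had the same base at 18 positions, differing at C1U, U14C and U18C (miR-25-3p base first, positions counted from the 5′ end). miR-19b-3p and miR-106b-3p each have a seed of their own among the members. On GRCr8, RefSeq places miR-25-3p at chr12:22156652-22156673 and miR-106b-3p at chr12:22157062-22157083, both on the minus strand within Mcm7. miR-92a-3p has a copy at chr15:98588602-98588622 on the plus strand, in miR-17/miR-92a, and an identical copy at chrX:137342945-137342965 on the minus strand, in the paralogous cluster that also holds Mir363. Its counts can therefore not be assigned to miR-17/miR-92a alone. The build behind the counts was not known.

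Total miRNA counts ranged from 26793 to 202388 in trained libraries and from 12181 to 186006 in sedentary ones. All levels below are CPM, counts scaled to the same total in every library. The 8 members together held 6235 counts, 0.298% of all. Their share of a library was 0.378% ± 0.311 over the 12 sedentary rats and 0.233% ± 0.175 over the 13 trained ones (± is the SD between libraries throughout), and in sedentary library 16 it was 0. A count of 0 in a single library allowed a level of up to 14.8 to 246 CPM, depending on depth (3 counts of the total, counting error only). Of 7 listed muscle miRNAs, markers of the labelled tissue, 6 had a count, and together they made up 24.1% ± 6.10 (SD, n = 12 sedentary) and 26.7% ± 5.54 (SD, n = 13 trained) of the total. No library of whole muscle, or of mitochondria without RNase A, was part of the comparison.

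The counts came almost entirely from 3 members. Over all 25 libraries, miR-25-3p had 2740 counts, miR-92a-3p 2324 and miR-106b-3p 1136. The 4 guide strands of the miR-17 seed, which act on cell cycle genes, had 35 counts in all. miR-93-5p had 25 counts, all in sedentary library 30, and miR-20a-5p had 10, all in trained library 6. miR-17-5p, miR-106b-5p and miR-19b-3p had 0 of 2094773 counts, which allows up to 1.43 CPM over all libraries. miR-20b-5p, from the paralogous cluster on the X chromosome, was the only other listed row with the miR-17 seed, and it was also at 0.

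Levels were uneven within each transcript. RefSeq lists 12 mature products of miR-17/miR-92a, and 2 had a count. miR-92a-3p, the last product of the transcript, held 99.6% of the cluster's 2334 counts, with the reservation about its copy on the X chromosome. Its pooled count was at least 775-fold higher than that of miR-17-5p, and likewise of miR-19b-3p (floor of 3 counts over all libraries). In miR-106b/miR-25, 3 of 6 mature products had a count. miR-25-3p held 70.2% of the 3901 counts, and miR-106b-3p nearly all of the rest. From the miR-106b hairpin, the 3p arm, usually regarded as the passenger strand, had counts in 13 libraries, while the 5p arm, usually regarded as the guide, had 0. The pooled count of the 3p arm was at least 379-fold higher. How reads with several matches were counted is not stated, so a listed 0 does not show that a miRNA was absent. miR-92a-3p, miR-17-5p and miR-19b-3p each have 2 loci in RefSeq, and miR-106b-5p has 1; the part of several matches in the counts was not tested.

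**Figure D1:**
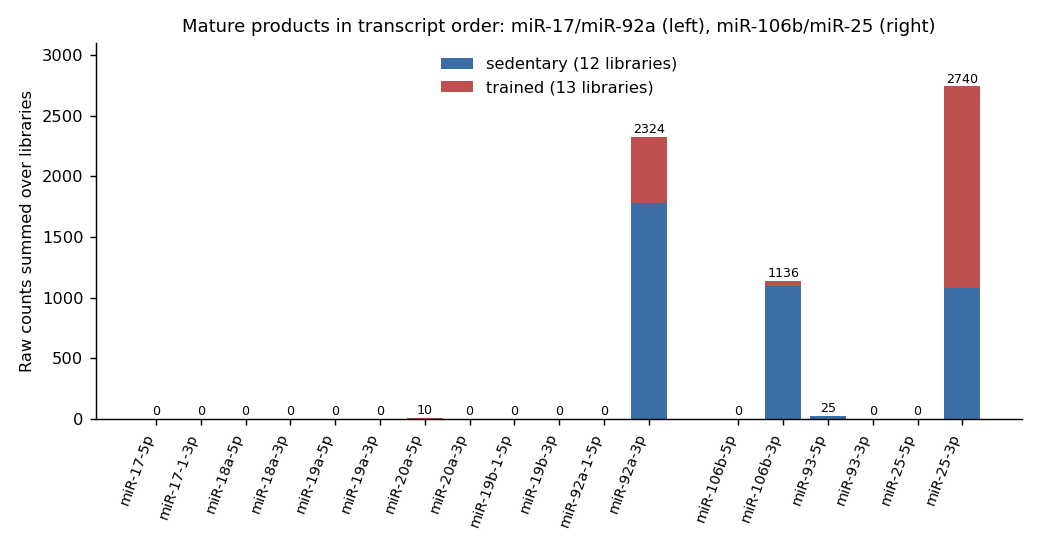
Raw counts (vertical axis) of each mature product of miR-17/miR-92a and miR-106b/miR-25 in transcript order (horizontal axis), summed over the 12 sedentary libraries (blue) and the 13 trained libraries (red), with the total above each bar. miR-92a-3p (2324), miR-106b-3p (1136) and miR-25-3p (2740) hold nearly all counts, and 13 of the 18 products are at 0.

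The other mature products of these clusters, of the paralogous cluster on the X chromosome and of seed relatives were followed with a list of 21 entries. 20 of the 21 had 0 counts, among them miR-18a-5p and miR-19a-3p from miR-17/miR-92a, miR-363-3p and miR-32-5p with the seed of miR-92a-3p, and the opposite arms miR-25-5p, miR-93-3p and miR-92a-1-5p. The entry with counts was miR-92b-3p, encoded apart from the clusters and also with that seed, at 60 counts in 6 libraries. Its mean level was 49.8 CPM ± 111 (SD, n = 12 sedentary) and 6.47 CPM ± 23.3 (SD, n = 13 trained), and its highest value, 382.5 CPM, was in sedentary library 3. With it, the rows that share the miR-25/miR-92a seed summed to 5124 counts against 35 for those with the miR-17 seed. As a share of the 8 members' counts, miR-25-3p and miR-92a-3p took 65.4% ± 34.0 per sedentary library (SD, n = 11 with a member count) and 95.6% ± 12.6 per trained library (SD, n = 13). The remainder in sedentary libraries was 1099 counts of miR-106b-3p and 25 with the miR-17 seed. In trained libraries it was 37 counts of miR-106b-3p, 33 of them in library 10, and 10 with the miR-17 seed.

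GC content was set beside these counts. It was 57.1% for miR-92a-3p, 50.0% for miR-25-3p and 63.6% for miR-106b-3p. It was 52.2% for miR-93-5p, 39.1% for miR-20a-5p, and 47.8%, 42.9% and 39.1% for miR-17-5p, miR-106b-5p and miR-19b-3p. Thus the 3 members at 0 lay below the 3 with the most counts, but miR-93-5p, with counts in a single library, lay above miR-25-3p. Of all 687 rows with a RefSeq sequence, 26.1% of those below 40% GC had a count, 37.2% of those from 40% to below 50%, 40.7% of those from 50% to below 60%, and 24.8% of those at 60% or above. Among the 29 members and listed relatives, 1 of 6, 0 of 10, 3 of 9 and 2 of 4 had a count in these GC ranges. The clusters' opposite arm miR-25-5p, at 63.6% GC, had 0 counts. The part of GC content in the counts was not tested.

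By mean level over the 25 libraries the order was miR-92a-3p (1387 CPM ± 1875, SD, n = 25), miR-25-3p (1031 ± 1113), miR-106b-3p (582 ± 914), miR-20a-5p (14.9 ± 74.3) and miR-93-5p (9.38 ± 46.9), with the other 3 at 0. Each difference between neighbours among the first 3 was smaller than either SD. Among the 260 miRNAs with a count, miR-92a-3p stood 54th, miR-25-3p 61st and miR-106b-3p 77th by mean CPM. In single libraries miR-92a-3p reached rank 18, in sedentary library 15, and miR-25-3p reached rank 23.

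**Figure D2:**
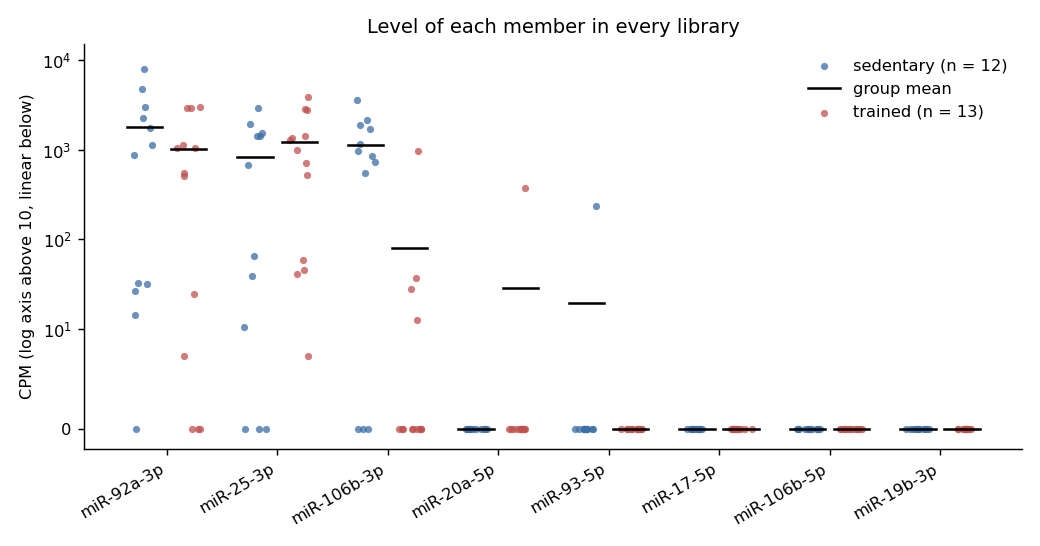
CPM of each member (vertical axis, log above 10 and linear below) in every sedentary (blue, n = 12) and trained (red, n = 13) library, with black lines at the group means. miR-92a-3p and miR-25-3p overlap between groups, miR-106b-3p is at 0 in 9 trained and 3 sedentary libraries, and the rightmost 3 members are at 0 throughout.

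miR-92a-3p, which acts on angiogenesis in endothelium, had a count in 10 of 13 trained and 11 of 12 sedentary libraries. Its level in trained rats ran from 0 to a median of 549 and a highest value of 2973 CPM. In sedentary rats it ran from 0 to a median of 1000 and a highest value of 7851 CPM, in library 15. The ranges overlapped, and the 4 libraries without a count were trained 13, 21 and 27 and sedentary 16. Trained library 27 was the deepest of all, so the missing counts were not confined to shallow libraries.

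miR-25-3p, a regulator of the mitochondrial calcium uniporter in some cell types, had a count in all 13 trained and in 9 of 12 sedentary libraries. Its level in trained rats ran from 7.29 to a median of 993 and a highest value of 3836 CPM, in library 21. In sedentary rats it ran from 0 to a median of 368 and a highest value of 2878 CPM, in library 30. The ranges overlapped here too, and the 3 libraries without a count were sedentary 15, 16 and 19.

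Although these miRNAs share a seed, they did not follow each other from library to library. miR-25-3p had the higher count in 11 libraries and miR-92a-3p in 12, they were equal in 1, and both were at 0 in 1. In trained library 21 miR-25-3p had 653 counts and miR-92a-3p 0, and in trained library 14 the counts were 340 and 3. In sedentary library 15 the order was the opposite, with 0 counts of miR-25-3p and 493 of miR-92a-3p, and in sedentary library 12 they were 3 and 170. The log2 ratio of miR-25-3p to miR-92a-3p ran from -5.82 to 6.82 over the 19 libraries with both. Spearman's rho of their levels was 0.13 (n = 25, permutation p = 0.545) and Pearson's r of log2(CPM + 10) was 0.12 (permutation p = 0.550). The adjusted p-values were 0.745 and 0.805 over the 150 pairs of either miRNA with another tested row, and r was 0.18 without the 2 libraries farthest from the median of miR-92a-3p. Within rats numbered 1 to 13 r was 0.46, and within those numbered 14 to 32 it was -0.076. All values are shares of a library, so each rises when others fall.

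**Figure D3:**
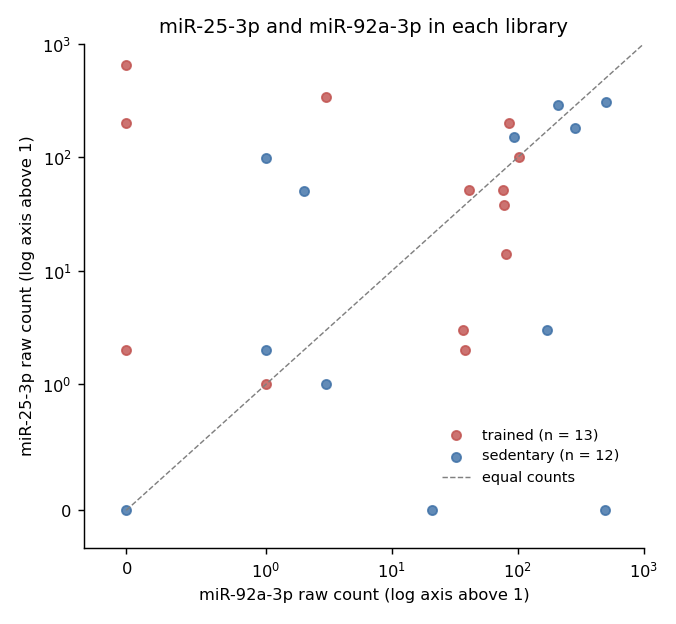
Raw count of miR-25-3p (vertical axis) against raw count of miR-92a-3p (horizontal axis) in each trained (red, n = 13) and sedentary (blue, n = 12) library, both axes log above 1, with a dashed line at equal counts. Libraries lie on both sides of the line, from 653 against 0 to 0 against 493.

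Of the 200 values of 8 members in 25 libraries, 58 were above 0. 16 of these were 1 to 3 counts, 42 were 10 or more, and 0 lay from 4 to 9. In the other 255 rows with a count, 134 of 2767 values above 0, or 4.84%, lay from 4 to 9, so values from 4 to 9 were uncommon in the whole table and the count for the members is not particular to them. The spread between libraries was wide for miR-92a-3p, whose coefficient of variation of CPM was 1.35, the 8th highest of the 76 rows with enough counts for the edgeR test. For miR-25-3p it was 1.08, the 22nd highest, against a median of 0.866 over the 76.

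The rows most like each of these members were read from the same 150 pairs. For miR-25-3p they were miR-100-5p (Spearman's rho 0.55, permutation p = 0.00432, n = 25), miR-30e-3p (rho 0.54, permutation p = 0.00647) and miR-30a-3p (rho 0.41, permutation p = 0.0438). Pearson's r was 0.50, 0.41 and 0.30 (permutation p = 0.0106, 0.0439 and 0.146), and 0.43, 0.38 and 0.46 without the 2 farthest libraries. For miR-92a-3p they were miR-152-3p (rho 0.52, permutation p = 0.00873), miR-125b-5p and miR-3588 (rho 0.50 for both, permutation p = 0.0114, with identical values for both rows). Pearson's r was 0.40 for miR-152-3p and 0.36 for the other two (permutation p = 0.0330 and 0.0766), and 0.23 and 0.30 without the 2 farthest libraries. Within numbers 1 to 13 and 14 to 32, r was 0.54 and 0.47 for miR-100-5p, 0.21 and 0.51 for miR-30e-3p and 0.78 and 0.057 for miR-30a-3p with miR-25-3p. For miR-92a-3p it was 0.27 and 0.43 with miR-152-3p and 0.59 and 0.34 with miR-125b-5p. None of the 150 pairs passed the threshold of 0.05 after adjustment (lowest adjusted p = 0.285 for rho).

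The main comparison asked whether 4 weeks of endurance training altered these miRNAs. Of the 8 members, 2 had enough counts for the edgeR quasi-likelihood test, and neither passed. 0 of all 76 tested rows passed, a background of 0%, and 1 row had an unadjusted p under 0.05. miR-25-3p was at 829 CPM ± 979 (SD, n = 12 sedentary) against 1217 ± 1232 (SD, n = 13 trained), a log2 fold change of 1.15 with a 95% interval from -0.89 to 3.19 (SE 1.02, adjusted p = 0.916 by edgeR). miR-92a-3p was at 1802 CPM ± 2410 (SD, n = 12 sedentary) against 1005 ± 1173 (SD, n = 13 trained), a log2 fold change of -1.12 with a 95% interval from -3.23 to 1.00 (SE 1.05, adjusted p = 0.932 by edgeR). The median over all 76 rows was -0.0080. Both intervals include changes of more than 4-fold, so the test does not show that the levels were alike.

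The value for miR-92a-3p had opposite signs in the lower and the higher range of title numbers, in which depth also differed between the groups. Among rats numbered 1 to 13 its log2 fold change was 1.21 (SE 1.27, edgeR adjusted p = 0.996), at 1823 CPM ± 1269 in 6 trained and 717 ± 883 in 6 sedentary rats. Among those numbered 14 to 32 it was -2.98 (SE 1.47, edgeR p = 0.0426, adjusted p = 0.518), at 304 CPM ± 406 in 7 trained and 2886 ± 3030 in 6 sedentary rats. In a joint fit the change between the ranges was -3.91 (SE 2.12, edgeR p = 0.0700, adjusted p = 0.532). It did not pass, so a dependence on the range was not shown. In the lower range sedentary totals (30527 to 186006) reached above trained ones (26793 to 43510), and in the higher range trained totals (72553 to 202388) reached above sedentary ones (12181 to 106661), so number and depth cannot be told apart. For miR-25-3p the values were 0.45 and 1.41, and the change between ranges was 1.11 (SE 2.02, edgeR adjusted p = 0.827). Leaving out single libraries moved the pooled miR-92a-3p value over a range of -1.31 to -0.21 (the latter without sedentary library 15) and that of miR-25-3p from 0.68 (without trained library 21) to 1.38.

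miR-106b-3p, the 3p arm of the first hairpin of miR-106b/miR-25, had few counts in the trained libraries and 51 or more in 9 of the 12 sedentary ones. In trained rats it had 33 counts in library 10, 2 in library 25 and 1 each in libraries 1 and 2, and 0 in the other 9 libraries. In sedentary rats it had 110 counts in library 4, 58 in library 3, 312 in library 7, 108 in library 8, 51 in library 11, 143 in library 12, 133 in library 15, 104 in library 30 and 80 in library 32. It had 0 in sedentary libraries 16, 19 and 29. The 9 sedentary libraries with a count exceeded every trained library in count, and the groups overlapped through the 3 at 0 and, in CPM, through trained library 10 at 966 CPM.

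Its mean level was 1126 CPM ± 1061 (SD, n = 12 sedentary) against 80.4 ± 267 (SD, n = 13 trained), a ratio of 14.0. Without trained library 10 the trained mean was 6.51 CPM and the ratio 173-fold, and without sedentary library 4 the ratio was 11.2-fold. The row failed the filter on low counts, so its level was compared with a two-sided permutation test run on all 260 rows with a count. The difference of -1045 CPM had p = 0.00057, the lowest of the 260, and did not pass the adjustment (adjusted p = 0.148). 0 of the 260 rows passed, a background of 0%, and 8, or 3.08%, had an unadjusted p under 0.05, all of them lower in trained rats. Among these 8, miR-210-3p and miR-3574 had the same difference and the same p. Of all 260 rows, 162 had a lower and 98 a higher mean CPM in trained rats, with a median difference of -21.6 CPM. Of the 5 members with a count, miR-106b-3p was the 1 under 0.05. The members were proposed with earlier results of these data known, so its place in that order is no independent evidence.

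**Figure D4:**
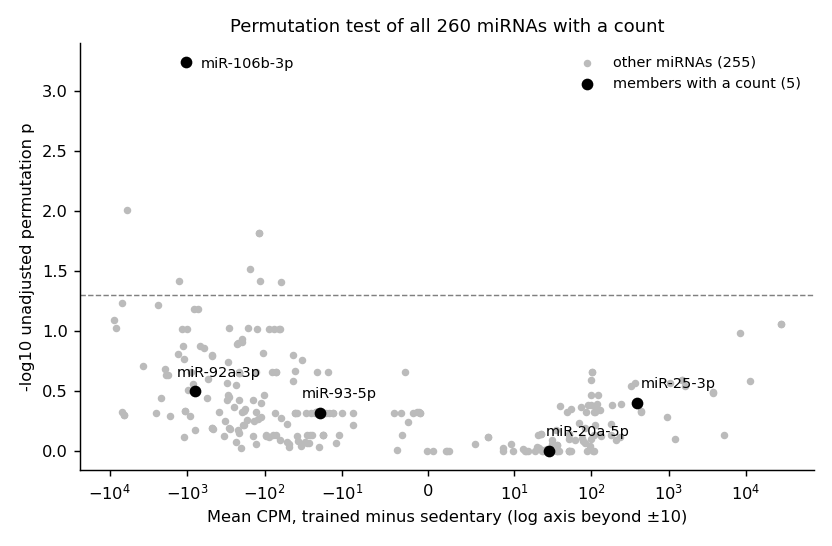
Unadjusted permutation p as -log10 (vertical axis) against the difference in mean CPM, trained minus sedentary (horizontal axis, log beyond 10 on either side), for 255 other miRNAs (grey) and the 5 members with a count (black), with a dashed line at p = 0.05. miR-106b-3p lies highest, at p = 0.00057, and the other 4 members lie under the line.

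Over all 25 libraries the permutation test gave 388 CPM for miR-25-3p (p = 0.397), -797 for miR-92a-3p (p = 0.320), -19.5 for miR-93-5p (p = 0.482) and 28.6 for miR-20a-5p (p = 1.00), with adjusted p-values of 0.902, 0.902, 0.902 and 1.00. With TMM-scaled CPM the value for miR-25-3p was 815.6 (p = 0.171), and without trained library 21, 14 or 2 it was 169.8, 257.9 or 255.9 CPM. Without sedentary library 15 or 30 the value for miR-92a-3p was -247.2 or -531.3 CPM, and by title number it was 1106 (1 to 13, exact permutation p = 0.121, adjusted p = 1.00) and -2583 CPM (14 to 32, exact permutation p = 0.0239, adjusted p = 0.521). miR-25-3p, cut from the same transcript as miR-106b-3p, thus had a positive and miR-106b-3p a negative value. A test of the difference between these values was not run. In trained rats miR-106b-3p exceeded miR-25-3p in 1 library and was lower in 12. In sedentary rats it was higher in 5 and lower in 5, with both at 0 in 2.

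The number of libraries with miR-106b-3p had the same direction, and its test did not pass the adjustment. It had a count in 4 of 13 trained and 9 of 12 sedentary libraries (Fisher's exact test, two-sided, p = 0.0472, adjusted p = 1.00 over 220 rows). At 10 or more counts it was found in 1 of 13 and 9 of 12 (Fisher's exact test p = 0.000983, adjusted p = 0.211 over 215 rows). 0 rows passed after adjustment at either threshold, a background of 0%. Depth was set beside these counts. 9 trained libraries with totals from 26906 to 202388 had 0 counts, and 9 sedentary libraries with totals from 30527 to 186006 had 51 to 312. When each library was thinned to the smallest total, 12181 counts, the expected number with a count was 1.95 of 13 trained and 8.999 of 12 sedentary libraries. For miR-25-3p the exact test gave 13 of 13 against 9 of 12 (Fisher p = 0.0957), and for miR-92a-3p 10 of 13 against 11 of 12 (Fisher p = 0.593), both with an adjusted p of 1.00.

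**Figure D5:**
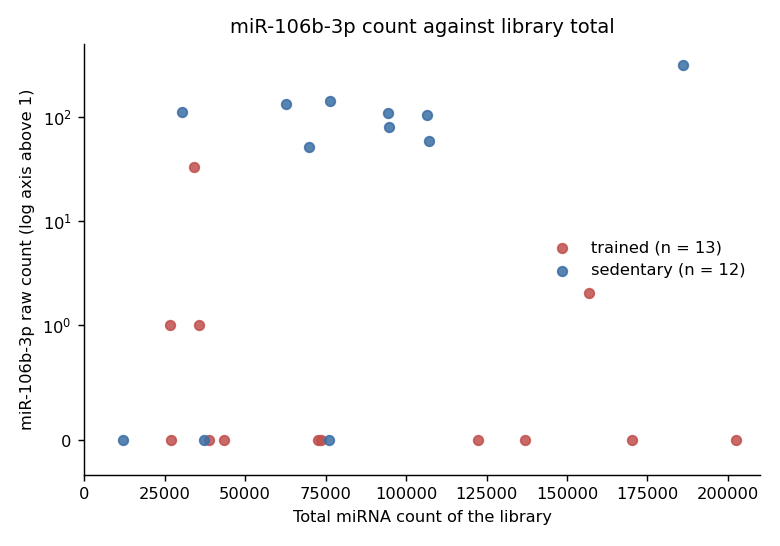
Raw count of miR-106b-3p (vertical axis, log above 1) against the total miRNA count of the library (horizontal axis) in 13 trained (red) and 12 sedentary (blue) libraries. 9 sedentary libraries lie between 51 and 312 counts over totals of 30527 to 186006, and the highest trained library is at 33.

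The mean was lower in trained rats within both ranges of title numbers. Among rats numbered 1 to 13, all 6 sedentary libraries had 51 counts or more and the 6 trained ones 0 to 33, at 1595 CPM ± 1112 and 172 ± 390 (exact permutation test, two-sided, p = 0.00649, adjusted p = 1.00). Among those numbered 14 to 32, the 7 trained libraries had 0 to 2 counts and the 6 sedentary ones 0 to 133, at 1.82 CPM ± 4.82 and 657 ± 845 (exact permutation test p = 0.0699, adjusted p = 0.536).

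Other tools were divided on miR-106b-3p. DESeq2 gave a log2 fold change of -3.86 (SE 1.31, p = 0.00323, DESeq2 adjusted p = 0.759). edgeR with no filter on low counts gave -3.91 (SE 1.31, edgeR adjusted p = 0.0157), in a fit that called 66 of 260 rows, or 25.4%. That fit also called miR-20a-5p at 4.00 and miR-93-5p at -3.73 (edgeR adjusted p = 0.00758 for both), each of which had counts in a single library. Calls of the unfiltered fit are for that reason not taken as results.

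Markers of other cell types were measured beside these differences, since miR-17/miR-92a and miR-106b/miR-25 are abundant in blood and endothelial cells. Of 7 leukocyte markers 4 had a count, with 0 counts for miR-155-5p, miR-223-3p and miR-142-3p. Of the list's 6446 counts, miR-146a-5p had 3762, miR-146b-5p 2334, miR-150-5p 346 and miR-142-5p 4, so its share rests mostly on the miR-146 rows. The list ranged from 0.00414% to 0.563% of counts in trained and from 0.00796% to 1.24% in sedentary libraries. Of 4 erythrocyte markers 1 had a count, miR-486, which muscle also expresses, at 1.01% to 5.27% in trained and 1.00% to 4.75% in sedentary libraries. miR-451-5p and both arms of miR-144 were at 0. Of 4 endothelial markers 3 had a count, and the list ranged from 0.161% to 1.11% and from 0.256% to 1.93%. The mean shares of these lists were 0.219%, 2.21% and 0.584% in trained and 0.435%, 3.04% and 0.808% in sedentary rats. The liver marker miR-122-5p ranged from 0% to 0.560% and from 0% to 0.429%. The part of these cells in the levels of the members was not tested. In isolated mitochondria, fewer organelles of a cell type and less RNA per organelle cannot be told apart.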

How the data were processed

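Small RNA was sequenced from mitochondria of 25 rats, 13 trained and 12 sedentary, grouped by their titles. Per the labels' protocols, mitochondria were treated with RNase A and libraries amplified without named molecular identifiers, so a count is of amplified reads. The authors deposited raw counts per mature miRNA, with empty cells read as 0, and normalized values, a signal equal to the count divided by 1 size factor per library (largest relative deviation 1.59e-09). Tools named in the submitters' processing notes are DESeq2 1.36 and fastp 0.20.0. For aligner, counter, build and annotation, none is given in the sources used here. Reads that match several miRNAs could raise or empty rows of close sequence.

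Trained and sedentary rats were compared with quasi-likelihood tests in edgeR 4.0.16 under R 4.3.3, with TMM factors on the 76 rows kept by filterByExpr (minimum count 10, minimum total 15), trained minus sedentary. On all 260 rows with a count, differences in mean CPM (counts per 1000000 of the library total) were tested by permutation (100000 resamples, or all groupings where groups were under 10), and detection by Fisher's exact test (scipy 1.17.1). P-values were adjusted by Benjamini-Hochberg over all rows tested, with a threshold of 0.05. Likeness used log2(CPM + 10). Alternatives included DESeq2 1.42.0, limma-voom (limma 3.58.1), other scalings and filters, a depth covariate, near-identical rows (within 10%) counted once, ranges of title numbers, and leaving out each library. The DESeq2 and unfiltered edgeR values of members that fail the filter, and the joint fit over title numbers, were added after seeing the data. The edgeR and permutation steps were tested on simulated data. Its counts varied less between libraries than the real ones, whose common biological coefficient of variation in edgeR was 1.16. That test therefore does not show how many changes would be missed here. No 2 libraries of 1 group were copies: over 144 pairs the chi-square divided by its degrees of freedom was at least 20.7. Rats are separate animals, and the tests set the group difference against the spread between these libraries. The labels give no litter or batch, so neither could be taken into account. The members and lists were chosen with earlier results of these data known. Named were all members, every entry with a count in the list of 21 other cluster products and seed relatives, and the 3 rows most like each tested member. Cell type markers named by their values were chosen after those were seen.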

Additional observations from a re-analysis of the deposited data

How the results depend on the processing

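No miRNA was called in 9 of 10 alternatives to the main edgeR fit, DESeq2 and limma-voom among them. The exception was edgeR with no filter on low counts, with 66 calls. The 25 edgeR fits that each left out a library also called 0. The permutation test called 0 in its 6 other settings and detection 0 at 10 or more counts, and both called 0 without each library. miR-92a-3p changed sign among rats numbered 1 to 13, to a log2 fold change of 1.21 and a difference of 1106 CPM, and at 10 or more counts its detection differed by 3.21 percentage points in favour of trained rats. The cause was not tested. With log2 of the total count as a covariate, over all libraries, the edgeR log2 fold change of miR-92a-3p was -1.75. That of miR-25-3p was 1.54 (edgeR adjusted p = 0.762 for both). miR-25-3p kept a positive and miR-106b-3p a negative value in every setting run. For miR-106b-3p the difference without each library ran from -1148 to -820 CPM (permutation adjusted p 0.0596 to 0.385), and the adjusted p was 0.296 with TMM-scaled CPM, 0.169 with the authors' normalized values, 0.255 on log2(CPM + 10) and 0.151 with near-identical rows counted once. Scaling by total counts moved the edgeR median over all rows from -0.0080 to -0.29, and the value of miR-25-3p from 1.15 to 0.55. DESeq2 gave no fold change for miR-93-5p. The title numbers are not shared between groups, so no paired analysis was possible because no rats are paired. Members with few counts are limited by depth: 3 counts in a single library stood for 14.8 to 246 CPM.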
